A study of Mus musculus with 14 samples.

Results

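Methylated DNA at the promoters of protein-coding genes was examined in 14 mouse samples, at those promoters that are rich in CpG dinucleotides. A promoter was taken as CpG-rich when the 1000 bp centred on the 5′ end of the gene had a GC content of at least 55% and an observed/expected CpG ratio of at least 0.6. This ratio is the number of CpG dinucleotides divided by the number that the C and G content alone would give. Of 21418 protein-coding genes on chromosomes 1 to 19 (mm9, NCBI build 37), 8440 (39.4%) had such a promoter and 12978 did not. A peak belonged to a CpG-rich promoter when its summit lay within 1000 bp of the 5′ end, and 4481 of the 1012200 peaks on these chromosomes (0.443%) did so. They lay at 1507 CpG-rich promoters (17.9%), whereas 6933 CpG-rich promoters had no peak in any sample. Because genes can lie close together, 222 of the peaks were near the 5′ ends of 2 or more such genes.

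The data came from MBD-seq, in which sonicated DNA is captured by a methyl-CpG binding domain protein and sequenced, and peaks of sequence tags mark methylated regions. The samples were 4 clones of Aid+/+ iPS cells and 4 clones of Aid-/- iPS cells, all at passage 6 and all carrying a Nanog-GFP reporter, 3 lines of ES cells, and 3 cultures of Aid+/+ MEFs (mouse embryonic fibroblasts) at passage 3. The iPS cells and MEFs were of a mixed background (C57BL6, DBA,129S4). The ES cells were RF8 (129SV, passage 19), MG1.19 (129Ola) and B6 ES (C57BL6), named here ES replicates 1, 2 and 3. Aid is an enzyme that deaminates cytosine, the Aid-/- clones lacked it, and the study asked whether it takes part in DNA demethylation during the generation of iPS cells. Each iPS sample was 1 clone. By their names, clones fall into series: Aid+/+ iPS replicates 1 and 2 were of one series, Aid+/+ iPS replicates 3 and 4 shared another with replicates 1 and 2 of the Aid-/- iPS cells, and replicates 3 and 4 of the latter were of the last. Nothing in the labels says that same-series clones came from separate cultures, so p-values measure the spread between these samples only. In bulk DNA, methylation of 1 allele in every cell and of both alleles in some cells cannot be told apart.

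Vertebrate genomes are methylated at most CpG dinucleotides, but clusters of CpG at promoters, the CpG islands, are mostly kept free of methylation in all tissues. Exceptions with a known role include the promoters of imprinted genes, which are methylated on only the maternal or the paternal chromosome. They also include those of genes that are used in germ cells and are silenced by methylation in the body. Germline gene promoters often hold the E-box that is bound by a repressor complex with E2F6, and imprinted promoters often hold the motif that is read by Zfp57, a protein that keeps their methylation after fertilization.

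The bases just upstream of the 5′ end are shown for 7 CpG-rich promoters, from the mm9 sequence on the strand of the gene, with each CpG in capitals. Fkbp6 and Dazl had a peak in all 14 samples. Sycp1, Slc25a31 and Mov10l1 had a peak in 13 samples, in all but ES replicate 2. Their tag counts were higher in MEFs than in Aid+/+ iPS cells, a difference that the test on fold enrichment below did not call. Igf2r had a peak in every MEF sample and in no Aid+/+ iPS sample. Klf4 is shown as a CpG-rich promoter with no peak in any sample. The positions were chr5:135825896-135826045 (minus strand) for Fkbp6, chr17:50432925-50433074 (minus) for Dazl, chr3:102740024-102740173 (minus) for Sycp1, chr3:40512627-40512776 (plus) for Slc25a31, chr15:88813189-88813338 (plus) for Mov10l1, chr17:12962531-12962680 (minus) for Igf2r and chr4:55545348-55545497 (minus) for Klf4. None of them overlapped an annotated exon.
Fkbp6: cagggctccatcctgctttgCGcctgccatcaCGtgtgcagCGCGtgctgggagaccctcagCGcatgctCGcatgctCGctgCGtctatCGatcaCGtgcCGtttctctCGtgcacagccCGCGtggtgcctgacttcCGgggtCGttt
Dazl: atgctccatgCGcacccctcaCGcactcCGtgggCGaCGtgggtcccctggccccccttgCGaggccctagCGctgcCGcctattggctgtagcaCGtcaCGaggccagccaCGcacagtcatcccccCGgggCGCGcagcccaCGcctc
Sycp1: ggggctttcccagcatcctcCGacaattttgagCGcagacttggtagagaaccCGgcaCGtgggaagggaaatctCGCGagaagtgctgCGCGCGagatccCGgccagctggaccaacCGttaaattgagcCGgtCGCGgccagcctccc
Slc25a31: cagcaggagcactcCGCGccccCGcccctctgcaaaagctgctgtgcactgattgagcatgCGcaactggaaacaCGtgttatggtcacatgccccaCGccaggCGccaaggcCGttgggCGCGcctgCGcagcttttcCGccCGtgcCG
Mov10l1: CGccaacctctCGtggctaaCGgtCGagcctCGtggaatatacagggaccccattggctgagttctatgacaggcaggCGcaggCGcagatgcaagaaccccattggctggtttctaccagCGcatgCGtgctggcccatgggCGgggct
Igf2r: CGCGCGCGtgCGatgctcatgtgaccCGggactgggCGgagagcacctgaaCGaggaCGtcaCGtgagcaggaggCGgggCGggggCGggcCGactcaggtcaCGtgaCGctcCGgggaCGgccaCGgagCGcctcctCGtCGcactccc
Klf4: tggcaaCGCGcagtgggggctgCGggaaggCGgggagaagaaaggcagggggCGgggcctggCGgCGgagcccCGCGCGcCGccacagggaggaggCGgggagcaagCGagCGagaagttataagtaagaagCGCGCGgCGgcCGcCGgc
These stretches of 150 bp held 16 CpG in Fkbp6, 15 in Dazl, 14 in Sycp1, 14 in Slc25a31, 10 in Mov10l1, 22 in Igf2r and 20 in Klf4. The unmarked Klf4 sequence thus held more CpG than each of the others shown except Igf2r.

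The letters of 3 motifs were searched for on both strands of the 1000 bp windows, and no motif contains another. The E-box CACGTG was present in 16 of 19 CpG-rich germline promoters (84.2%), in 22.4% of all 8440 CpG-rich promoters and in 21.2% of the 1507 with a peak. The window of each of the 7 genes shown above held it, Klf4 included. The E2F6 letters GGCGGGAA were present in 21.1% of the germline promoters and 13.1% of all CpG-rich promoters. The Zfp57 letters TGCCGC were present in 14 of 18 CpG-rich promoters of imprinted genes (77.8%) and in 59.5% of all. These matches describe the sequence and not binding.

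The headers of the peak lists differ between samples, and this has to be known before any group is compared. By the MACS version and the job names in these headers, the 14 lists fall into 4 sets, called runs here. Neither the labels nor the headers say what these runs were. Among the Aid+/+ clones, replicate 1 came from run A and the other 3 made up run B. The Aid-/- clones came from run A, except replicate 3, which came from run C. Run C also contained every ES sample and the first MEF sample, while the other 2 MEF samples formed run D. Libraries held 20.1 to 36.9 M tags (M, mega), of which 6.65 to 19.6 M remained after the filter on duplicates, and 31650 to 106408 autosomal peaks were called per sample.

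CpG-rich promoters with a peak numbered 652, 94, 146 and 148 in Aid+/+ iPS replicates 1 to 4. In Aid-/- iPS replicates 1 to 4 they numbered 597, 508, 133 and 911. The ES samples had 126, 72 and 395, and the MEF samples 259, 260 and 260. All 4 samples of run A had at least 508, and no sample of another run had more than 395. The share of a sample's peaks that lay at CpG-rich promoters reached its highest values in run A, although run D overlapped with run A, with 0.587 to 1.39% in run A, 0.112 to 0.148% in run B, 0.152 to 0.538% in run C and 0.444 to 0.716% in run D. The median fold enrichment of these peaks over the local background was 9.14 to 11.5 in run A, and 10.2 to 14.8 in the other runs.

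**Figure D1:**
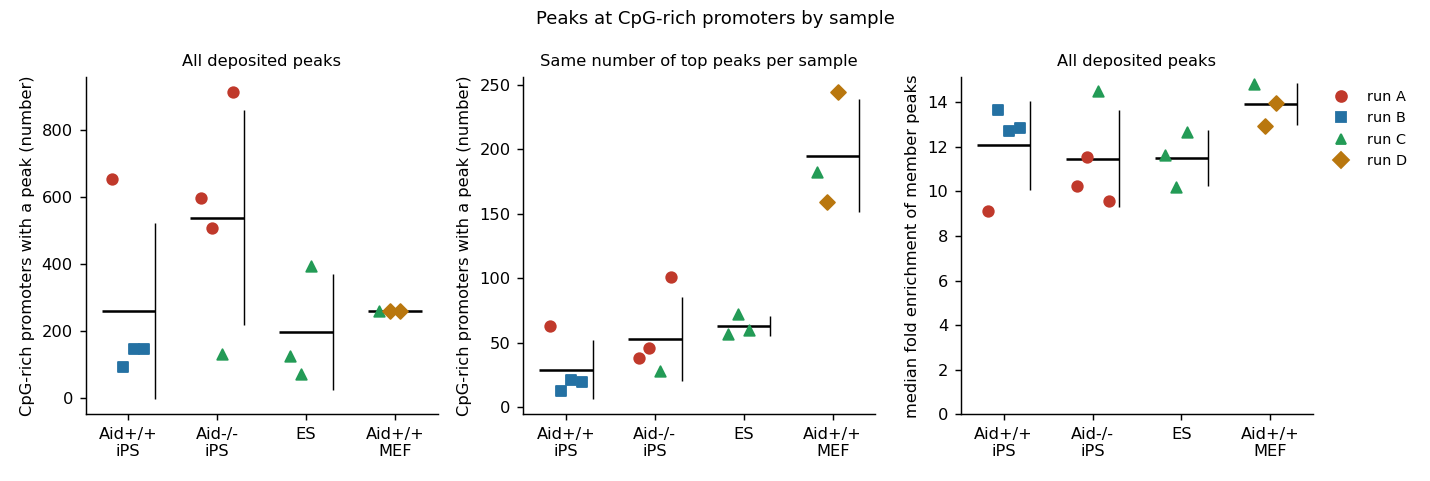
Values of each sample at CpG-rich promoters by group: the number of promoters with a peak (left), the same when the 31650 most significant peaks of each sample are kept (middle) and the median fold enrichment (right), with 1 point per sample, marker and color for the run and horizontal and vertical lines for the group mean and SD. On the left the 4 samples of run A have 508 to 911 promoters and the other 10 samples 72 to 395, and in the middle the 3 MEF samples have 159 to 244, above all others.

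Of the 1507 CpG-rich promoters with a peak, 855 (56.7%) had peaks in samples of run A only. Among promoters that were not CpG-rich, 433 of 2998 (14.4%) did so. Peaks were found in all 4 samples of run A at 200 CpG-rich promoters, and 57 of these had no peak in the other 10 samples. When only peaks with p of 1e-10 or less were kept, 384 promoters had peaks in run A only, and when the 31650 most significant peaks of each sample were kept, 47 did. Weak peaks were counted over all peaks at CpG-rich promoters of a sample. Those with a MACS score under 100, that is with p above 1e-10, made up 26.5 to 67.6%. In run A they made up 53.7 to 67.6%, in MEFs 26.5 to 30.4% and in the remaining samples 31.9 to 56.9%. ES replicate 2, with 56.9%, thus lay within the range of run A. Among the autosomal peaks of a sample at no promoter, they made up 22.3 to 41.7%. In MEF replicates 2 and 3, weak peaks were less common at CpG-rich promoters (30.3 and 30.4%) than among these (34.4 and 33.0%). Whether the runs differed in the cells, the libraries or the peak calling cannot be told apart.

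The difference between runs varied with the CpG content of promoters. All 21418 promoters were divided by their observed/expected CpG ratio. At a ratio of 0.2 to 0.4, 14.7 to 19.8% of promoters had a peak in the samples of run A and 17.8 to 22.8% in those of run B. At a ratio of 0.6 to 0.8, the shares were 7.86 to 13.1% in run A and 2.18 to 3.01% in run B. The ranges thus overlapped at 0.2 to 0.4, and run A lay above run B at 0.6 to 0.8. Run A was also above run B at 0.4 to 0.6, with 19.5 to 23.8% and 13.7 to 16.8%, and below it at less than 0.2, with 1.64 to 2.61% and 2.65 to 3.61%. Over all 14 samples, the share fell from between 4.51 and 24.3% at a ratio of 0.2 to 0.4 to between 0.924 and 7.83% at a ratio of 0.8 to 1. At a ratio below 0.2 it was only 0.790 to 3.61%, so fewer CpG did not always go with more peaks. Promoters that were not CpG-rich thus included these, with few peaks, and those at 0.2 to 0.6, with more.

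**Figure D2:**
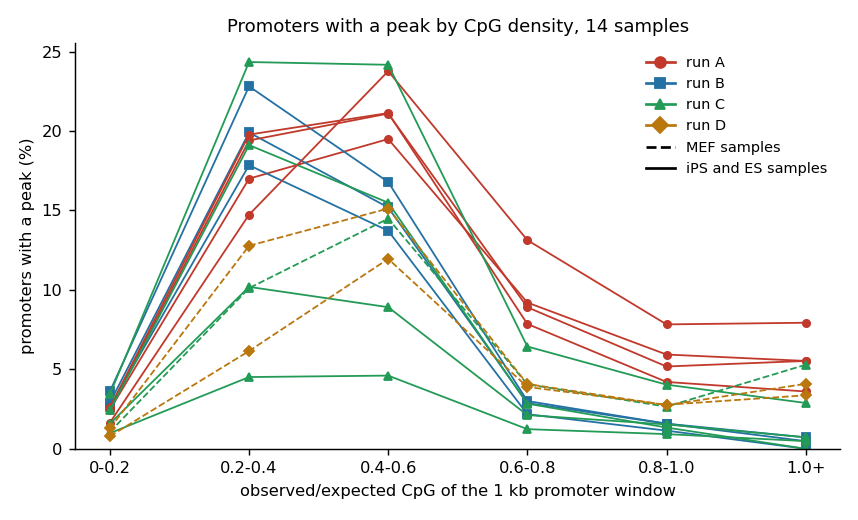
Promoters with a peak (%) by the observed/expected CpG ratio of the 1 kb window, for all 21418 promoters, with 1 line per sample and color for the run. Lines of run A and run B overlap at a ratio of 0.2 to 0.4 and separate at 0.6 to 0.8, where run A lies at 7.86 to 13.1% and run B at 2.18 to 3.01%.

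CpG-rich promoters had peaks less often than other promoters in every sample. The share of promoters with a peak was 3.86% for CpG-rich and 9.76% for other promoters as the mean of 14 samples, a difference of -5.90 ± 3.22 percentage points (SD, n = 14), which was below 0 in 14 of 14 samples (exact two-sided sign-flip permutation test, p = 0.000122, the smallest this test can give). The peaks were also lower. The mean of the median fold enrichments was 12.2 at CpG-rich and 15.3 at other promoters, a difference of -3.18 ± 2.19 (SD, n = 14) that was below 0 in 13 of 14 samples (exact sign-flip permutation test, p = 0.000244). Group by group, this difference was -4.38 ± 1.77 for the 4 Aid+/+ and -4.65 ± 1.61 for the 4 Aid-/- iPS clones, -2.73 ± 0.8293 for the 3 ES lines and -0.0700 ± 0.105 for the 3 MEF cultures (all SD). Without run A, the difference in the share was -6.67 points and that in fold enrichment was -2.20.

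Promoters close to the limits of the definition had the following values. The share of promoters with a peak had a median over samples of 2.90% for promoters with a GC content up to 1 point above the limit and 2.83% for those up to 1 point below it, at a sufficient CpG ratio. It was 4.20% for promoters up to 0.05 above the limit of the CpG ratio and 6.11% for those up to 0.05 below. Summits 900 to 1000 bp from a CpG-rich 5′ end numbered 26 as the median over samples, and those just beyond, at 1000 to 1100 bp, numbered 24.5.

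Summits lay more often downstream than upstream of the 5′ end, in 54.1 to 76.2% of the peaks of a sample at CpG-rich promoters. Each peak was counted once, with its nearest CpG-rich 5′ end. Their position varied with the run. The median distance of the summit from the 5′ end was 367 to 426 bp in run A and 610 to 688 bp in run B. In MEFs it was 332 to 438 bp, and in the ES samples 379, 406 and 609 bp. Only 16.9 to 26.6% of summits in run B lay within 250 bp of the 5′ end, compared with 32.6 to 38.0% in run A and 35.2 to 42.1% in MEFs.

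**Figure D3:**
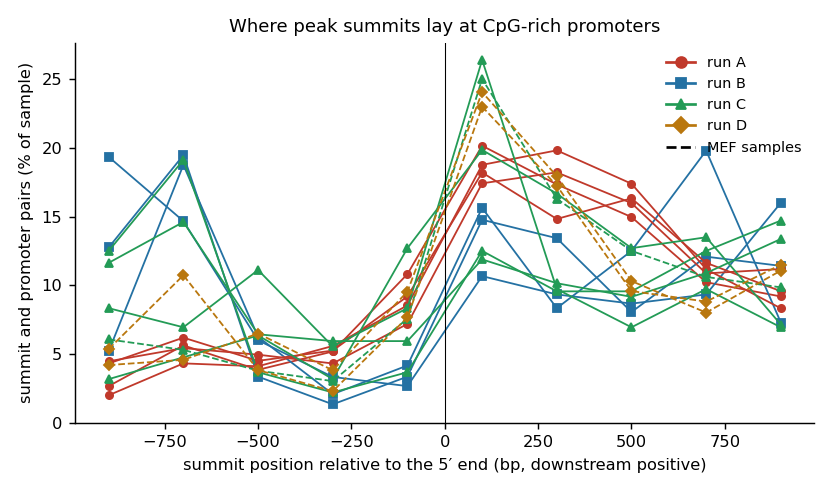
Position of peak summits relative to the 5′ end of CpG-rich promoters (bp, downstream positive) in bins of 200 bp, as the percent of the summit and promoter pairs of each sample, with 1 line per sample and color for the run. All samples have many summits just downstream of the 5′ end, while run B and some samples of run C also have many at 600 to 1000 bp upstream.

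A peak at a CpG-rich promoter was seldom shared by many samples. Peaks were found in 1 sample at 545 promoters, in 2 samples at 340 and in 3 samples at 222. Only 14 CpG-rich promoters had a peak in all 14 samples, compared with 183 of the other promoters. Part of the shared peaks lay at sequences that are not unique. A summit was counted as having a copy when at least 75 of the 150 bp around it matched another place in the genome with at least 95% identity. Copies were found for 4.77% of the promoters with a peak in 1 sample, 10.9% of those in 2 to 6 samples, 33.6% of those in 7 to 13 samples and 7 of the 14 promoters in all samples. For comparison, 1.81% of all CpG-rich 5′ ends had a copy. Tags from such copies and from the promoter itself cannot be told apart, and their part in these peaks was not tested.

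The 14 promoters with a peak in all samples were of several kinds. Among those with the most significant peaks were Fkbp6, whose protein acts in meiosis and in the piRNA pathway that silences transposons in the testis, and Dazl, which encodes an RNA-binding protein of germ cells. The imprinted genes Peg3, Nnat, Plagl1 and Nap1l5 were also among the 14. Ywhaq, Tmed10, Actg1, 0610009L18Rik, Hmgb2, Rpl13 and Ak4 had copies of the summit sequence, and Actg1 and 0610009L18Rik shared the same peaks. The last of the 14 was 4933416C03Rik. When the same number of top peaks was taken from each sample, 6 promoters had a peak in all 14.

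Fkbp6 (chromosome 5, minus strand, 5′ end at 135825895) had the most significant peaks of the 14. Fold enrichment at Fkbp6 was 23.2, 16.8, 20.3 and 14.3 in Aid+/+ iPS replicates 1 to 4, and 22.4, 23.4, 19.9 and 21.9 in the Aid-/- iPS replicates. It was 25.8, 28.8 and 22.9 in ES cells and 26.4, 26.5 and 29.5 in MEFs. The MEF values lay above those of all 8 iPS clones, whereas those of the iPS genotypes overlapped. The summit lay at positions -78 to 41 bp from the 5′ end, where negative values are upstream.

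Dazl (chromosome 17, minus strand, 5′ end at 50432924) showed a similar range. Fold enrichment at Dazl was 16.8, 16.1, 13.2 and 12.9 in Aid+/+ iPS cells, 14.9, 17.7, 16.0 and 13.6 in Aid-/- iPS cells, 18.4, 11.1 and 16.8 in ES cells, and 19.7, 20.3 and 19.8 in MEFs. Here the MEF values lay above those of all other samples, and the other groups overlapped. Its summit lay at -104 to 8 bp from the 5′ end in MEFs, and at -409 to -291 bp in Aid+/+ iPS replicates 2 to 4.

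Imprinted genes gave peaks in all groups, with ranges that mostly overlapped. At Peg3 (chromosome 7, summit in an intron), which encodes a zinc finger protein expressed from the paternal chromosome, fold enrichment was 11.1 to 15.3 in Aid+/+ iPS cells, 10.5 to 14.1 in Aid-/- iPS cells, 11.1 to 20.6 in ES cells and 14.2 to 16.8 in MEFs. All groups overlapped with Aid+/+ iPS cells. At Nnat (chromosome 2, summit in a UTR), which encodes a small membrane protein expressed in the developing brain, it was 8.35 to 15.3, 9.51 to 12.8, 10.5 to 18.9 and 13.9 to 17.03, respectively. Plagl1 (chromosome 10), a zinc finger protein gene, had values of 8.81 to 13.7, 9.39 to 12.02, 10.9 to 13.4 and 14.3 to 16.0. The MEF range of Plagl1 lay above the others.

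Most promoters of germline and imprinted genes were marked in some sample. Of 19 germline genes with a CpG-rich promoter, 16 (84.2%) had a peak in at least 1 sample, and of 18 imprinted genes 15 (83.3%) did, compared with 17.9% of all CpG-rich promoters. Per sample, 6 to 14 germline promoters had a peak in Aid+/+ iPS cells, 11 to 15 in Aid-/- iPS cells, 3 to 15 in ES cells and 13 to 14 in MEFs. Imprinted promoters with a peak numbered 5 to 8, 8 to 12, 5 to 9 and 8, respectively. Fkbp6 was counted in both lists. The genes of the synaptonemal complex Sycp2 and Sycp3, the kinase gene Stk31 and the piRNA factor gene Mael had peaks in all Aid-/- iPS and all MEF samples. In Aid+/+ iPS cells these 4 genes had peaks in 2 or 3 of the 4 samples, among them always replicate 1 of run A.

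**Figure D4:**
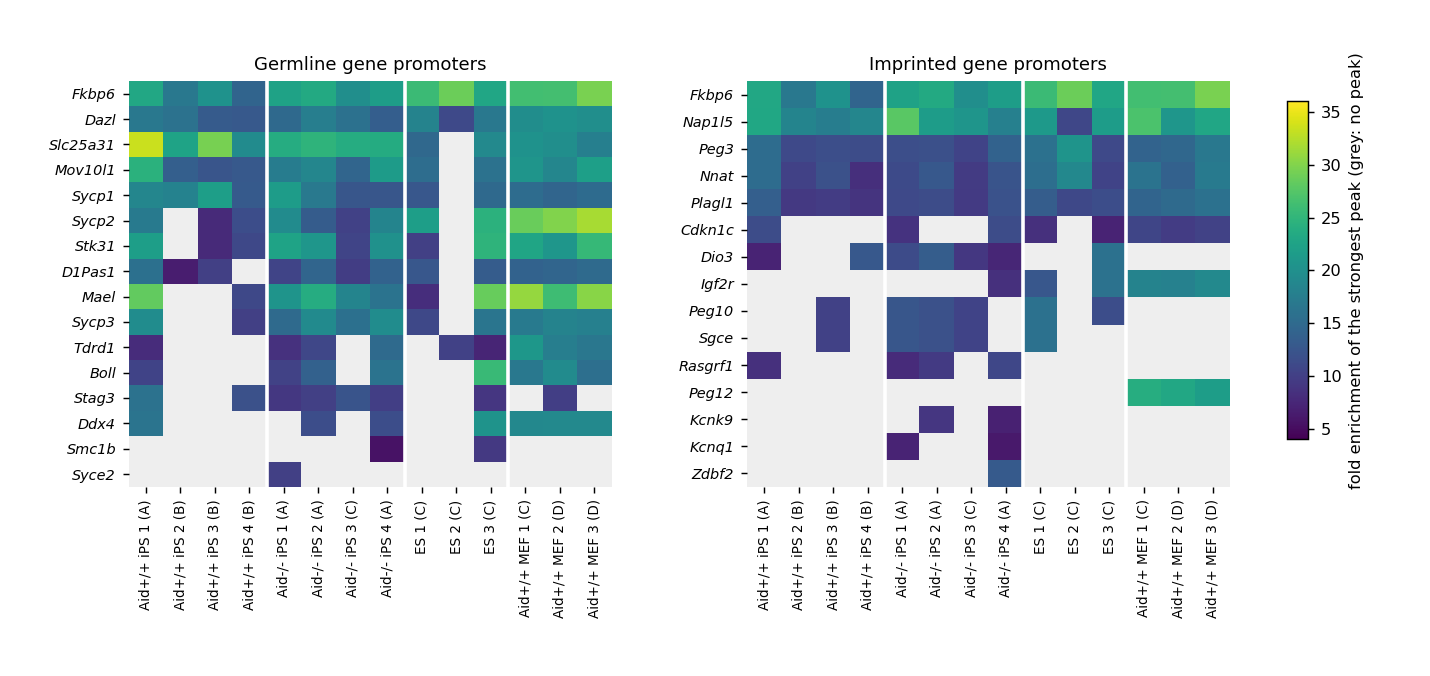
Fold enrichment of the strongest peak at CpG-rich promoters of germline genes (left) and imprinted genes (right) in each sample, with the run in brackets and grey for no peak. Only genes with a peak in at least 1 sample are drawn, 16 and 15 in number. Fkbp6 and Dazl on the left, and 5 genes on the right, have a peak in all 14 samples.

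Developmental genes were marked mainly in run A, but more peaks in run A were not particular to them. Of all 8440 CpG-rich promoters, 6.02 to 10.8% had a peak per sample in run A and 0.853 to 4.68% in the other samples. In at least 1 sample, 17.9% of all CpG-rich promoters had a peak. Of 70 CpG-rich promoters of developmental transcription factors, 43 had a peak in some sample, with 16 to 31 per sample in run A and 0 to 4 in the others. Epithelial genes had peaks at 11 of 12 CpG-rich promoters, with 5 to 9 per sample in run A and 0 to 3 elsewhere. Hox genes had peaks at 10 of 17, with 2 to 6 per sample in run A and 0 to 2 elsewhere. Germline genes did not divide in this way, with 14 to 15 in run A and 3 to 15 in the others. Tags at single developmental genes varied. In MEFs, Tbx1, a T-box gene of the pharyngeal region, had 174.7 ± 7.37 tags, Sox7 58.3 ± 5.86 and Gata2 55.7 ± 19.4 (SD, n = 3), and no iPS or ES sample had a peak at Tbx1. Hoxd13 had peaks of 16 to 27 tags in 3 samples of run A, and Nkx2-2, a factor of the ventral neural tube, had peaks of 12 to 21 tags in all 4 samples of run A and in no other.

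Ribosomal protein genes had peaks at 23 of 56 CpG-rich promoters, compared with 17.9% of all CpG-rich promoters. Copies at the summit were found for 21 of the 23. Ribosomal protein genes have many processed pseudogenes. Rpl13 had a peak in all 14 samples, Rpl26 in 13 and Rps29 in 12. Zinc finger genes named Zfp, by contrast, had peaks at 10 of 133 promoters. Housekeeping genes had a peak at 1 of 12, Ppia, which also had copies. Of 12 CpG-rich promoters of DNA methylation and demethylation genes, Tdg and Uhrf2 had a peak, and Tdg had copies. There was 1 CpG-rich olfactory or vomeronasal receptor promoter, with no peak, and no clustered protocadherin promoter was CpG-rich.

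Genes of cell identity were examined next, although peaks mark methylated DNA and not expression. The counts of this paragraph stand beside the 17.9% of all CpG-rich promoters that had a peak in some sample. Of 8 pluripotency genes with a CpG-rich promoter, Sox2, Utf1, Fgf4 and Trim28 had a peak in some sample. Utf1, Fgf4 and Trim28 had peaks in run A only, of 13 to 67 tags. Of 9 fibroblast and mesenchymal genes, Snai1, a repressor of epithelial genes, had a peak, in 10 samples. Pax9, Pax7 and Pax2 had peaks of 13 to 20 tags in 1 or 2 Aid-/- iPS samples each, all of run A. These were 3 of the 4 Pax genes with a CpG-rich promoter. Klf4 and Myc had CpG-rich promoters and no summit within 1000 bp of the 5′ end in any sample. Peaks further into these genes were not examined.

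The coding sequences of the reprogramming factors need care. Sox2 had peaks in all 8 iPS clones, of 1151, 857, 250 and 93 tags in Aid+/+ iPS replicates 1 to 4 and of 402, 275, 61 and 343 tags in the Aid-/- iPS replicates, and none over the gene in ES cells or MEFs. In 5 of the clones the summit lay 679 to 985 bp downstream of the 5′ end, in the coding sequence. In the other 3 it lay at 1012 to 1033 bp, just beyond the limit of 1000 bp, so these were not counted as peaks at the promoter. Pou5f1, whose promoter is not CpG-rich at a CpG ratio of 0.33, had peaks of 39 to 139 tags in all 8 iPS clones and none in ES cells or MEFs, also in coding sequence. The study introduced these factors into the cells with viruses, and tags of the introduced copies and of the gene itself cannot be told apart. The Nanog promoter was not CpG-rich either and had a peak in MEF replicates 1 and 2 only, with 7.93- and 7.18-fold enrichment.

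The first comparison asked whether loss of Aid changed methylated DNA at CpG-rich promoters. The number of promoters with a peak was 537 ± 320 in Aid-/- iPS cells and 260 ± 263 in Aid+/+ iPS cells (SD, n = 4 each). The groups overlapped, and the difference of 277 did not exceed the spread between clones (two-sided permutation test (exact), p = 0.343, BH-adjusted p = 0.836 over 9 such tests, where 0.0286 is the smallest p possible). The share of peaks was 0.704 ± 0.514% and 0.314 ± 0.363% (SD, n = 4; exact permutation test, p = 0.286, BH-adjusted p = 0.836). The median fold enrichment was 11.5 ± 2.18 and 12.1 ± 2.00 (SD, n = 4; exact permutation test, p = 0.686, BH-adjusted p = 0.992). Run A held 3 of the Aid-/- clones and 1 of the Aid+/+ clones. Within run A, the Aid+/+ clone had 652 promoters with a peak and the 3 Aid-/- clones had 597, 508 and 911, a difference of 20. Outside run A, the 3 Aid+/+ clones had 94, 146 and 148 and the Aid-/- clone had 133, a difference of 3.67. The difference in fold enrichment, -0.599 over all clones, was 1.32 within run A and 1.47 outside it.

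Kcnk3 was the only CpG-rich promoter with a peak in every Aid-/- and in no Aid+/+ iPS clone (0.0118% of 8440). Of the 1285 CpG-rich promoters with a peak in any of these clones this was 0.0778%. The share was 0.0342% of all merged regions, each of which has a peak. Kcnk3 encodes a potassium channel. Its peaks held 31, 28, 13 and 43 tags at 16.4-, 22.0-, 13.2- and 12.1-fold enrichment, with the summit in an intron 831 to 886 bp downstream of the 5′ end, and ES replicate 3 had a peak of 31 tags there. No CpG-rich promoter had a peak in every Aid+/+ and no Aid-/- clone (0 of 8440, compared with 0.176% of merged regions). The first count rested on Aid-/- iPS replicate 3, which was not of run A. Without it, 47 promoters had a peak in all of the other Aid-/- clones, each of run A, and in no Aid+/+ clone.

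Tag counts were compared at merged regions where all 8 clones had a peak, of which 64 lay at CpG-rich promoters. A region counted as lying at such a promoter when the summit of at least 1 of its peaks did, so the summits of other samples in the region can be further away. None differed between genotypes (edgeR quasi-likelihood test, BH-adjusted p under 0.05), and DESeq2 called none either. At an unadjusted p under 0.05, 11 of the 64 differed in edgeR and 11 in DESeq2, compared with 3.61% and 3.28% of all regions, and with the run as a term in edgeR 6 did, compared with 8.07% of all. Over all 48078 regions, edgeR called 0% higher and 0.00208% lower in Aid-/- cells, and DESeq2 0.00832% and 0.0416%. The median log2 fold change over the 64 was 0.26, compared with -0.0029 over all regions, and it was -0.15 with the run as a term in the fit. The regions with the smallest p were Lamc3, a laminin gene, with a log2 fold change of 1.04 ± 0.36 (SE), and Cpne7, a copine gene, with 1.00 ± 0.29 (SE) among those higher in Aid-/- cells. Among those lower, they were Nap1l5 with -0.65 ± 0.37 and Supt4h1 with -0.50 ± 0.28. The edgeR adjusted p was 1.00 for each of these 4. Without Aid+/+ iPS replicate 1, 1 of 64 regions was called, as higher in Aid-/- cells, compared with 0.0854% higher and 0.0397% lower of all 50348 regions.

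The second comparison was that of Aid+/+ iPS cells with Aid+/+ MEFs, the cell type from which iPS cells were made. No run held both groups, so run and cell type cannot be told apart here. The number of CpG-rich promoters with a peak was 260 ± 0.577 for the 3 MEF cultures and 260 ± 263 for the 4 Aid+/+ iPS clones (SD; two-sided permutation test (exact), p = 1, BH-adjusted p = 1). Without Aid+/+ iPS replicate 1, MEFs had 130 more. The share of peaks was 0.566 ± 0.138% and 0.314 ± 0.363% (exact permutation test, p = 0.371, BH-adjusted p = 0.836), and the median fold enrichment 13.9 ± 0.929 and 12.1 ± 2.00 (exact permutation test, p = 0.143, BH-adjusted p = 0.836). MEF libraries had fewer peaks in all, 33500 to 54953, compared with 74815 to 106408 in Aid+/+ iPS cells. When the 31650 most significant peaks of each sample were compared, CpG-rich promoters with a peak numbered 182, 159 and 244 in MEFs and 63, 13, 21 and 20 in Aid+/+ iPS cells. The groups then did not overlap, and the difference was 166. This number keeps nearly all peaks of the shortest MEF list and only the strongest of the longer iPS lists, so it is a comparison of strong peaks and was not taken as a test of the number of marked promoters.

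At CpG-rich promoters a peak in MEFs alone was more common than a peak in iPS cells alone, and elsewhere the counts were the other way round. A peak in every MEF and in no Aid+/+ iPS sample was found at 67 CpG-rich promoters (0.794% of 8440), and the converse at 9 (0.107%). At other promoters the counts were 64 (0.493%) and 224 (1.73%). Among CpG-rich promoters with a peak in any of these samples, the shares were 7.49% and 1.01%. Among other promoters with a peak they were 2.78% and 9.71%. Over merged regions, each of which has a peak, the shares were 1.39% and 13%. Of the 67 promoters, 26 had copies at the summit. At 33 of them some Aid-/- iPS clone had a peak, at 0 of them all Aid-/- clones did, and 34 had a peak in some ES sample. A peak in no iPS or ES sample was found at 14 of the 67. Without Aid+/+ iPS replicate 1 of run A, 111 promoters met the first rule and 15 the second.

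The 5 promoters with the most significant peaks among the 67 all lay at unique sequence. The first, 4933428G20Rik (chromosome 11, minus strand, 5′ end at 97361654), had 599, 487 and 636 tags in MEFs, where its summit was at -54 to -10 bp from the 5′ end. It also had peaks of 24 to 72 tags in 2 Aid-/- iPS and 2 ES samples. Slc5a5, the sodium/iodide symporter gene of the thyroid, had 20.1-, 15.8- and 17.9-fold enrichment in MEFs and 5.41- to 7.84-fold in 4 other samples. At 9330171B17Rik, peaks were found in no sample other than MEFs, with 19.6-, 18.4- and 17.7-fold enrichment. Rbmxl2, a gene of splicing in the testis, had 14.4-, 12.3- and 13.3-fold enrichment in MEFs.

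Igf2r (chromosome 17, minus strand, 5′ end at 12962530) was the other of the 5. Igf2r encodes the receptor that removes Igf2, and its promoter becomes methylated on the silent paternal chromosome after implantation. Its peaks held 325, 218 and 325 tags in MEFs, at 18.3-, 18.1- and 19.03-fold enrichment. Aid-/- iPS replicate 4 had 15 tags, ES replicates 1 and 3 had 36 and 57, and no Aid+/+ iPS clone had a peak. Its summit in MEFs lay at -139 to -96 bp from the 5′ end, inside the sequence printed above. Peg12, another imprinted gene, had peaks in the 3 MEF samples alone. Dio3, an imprinted gene of thyroid hormone inactivation, had peaks in 2 Aid+/+ iPS, 4 Aid-/- iPS and 1 ES samples and in no MEF sample. From other lists, Hoxc9, Marveld2, Tbx1, Sox7, Gata2 and Zfp36l2 had a peak in every MEF and in no Aid+/+ iPS sample.

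The promoters marked in every Aid+/+ iPS sample and in no MEF sample were fewer. They were led by Skor2, a corepressor gene of neurons, with 13.6-, 22.9-, 18.99- and 13.5-fold enrichment, and Esyt3, a gene of contacts between the endoplasmic reticulum and the plasma membrane, with 20.7-, 20.5-, 24.8- and 26.1-fold. Both had peaks in all Aid-/- clones and in ES replicate 3. Lamc3 had 31.6-, 14.98-, 13.2- and 20.4-fold enrichment, and Gm13275 had copies. Of the 9 promoters, 7 had a peak in all Aid-/- clones.

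At promoters marked in both cell types, the direction of the difference in tags depended on the scaling of libraries. Tag counts were compared at 41 regions at CpG-rich promoters where all 7 samples had a peak, and MEFs were higher at 27 and lower at 0 with TMM scaling (edgeR, BH-adjusted p under 0.05). When libraries were scaled to the tags left after the filter on duplicates, 12 were higher and 13 lower, with a median log2 fold change of -0.13. Over all 21945 regions tested, 23.7% were higher and 19.9% lower. The median log2 fold change was 1.14 over the 41 and -0.05 over all regions. Every MEF count was above every iPS count at 15 of the 41 regions (7.88% of all regions) and below at 1 (42.2% of all regions). Ldoc1l, a gene that derives from a retrotransposon gag gene, had 537, 434 and 402 tags in MEFs and 95, 73, 65 and 66 in Aid+/+ iPS cells, a log2 fold change of 3.29 ± 0.18 (SE; edgeR adjusted p = 4.45e-08). CT009512.1 had 385, 277 and 398 tags in MEFs and 26, 13, 23 and 27 in iPS cells, a log2 fold change of 4.69 ± 0.30 (SE; edgeR adjusted p = 1.06e-07). Its summits lay at -75 to -49 bp from the 5′ end in MEFs and at 884 to 933 bp in Aid+/+ iPS cells, so different stretches of 1 merged region were marked. It was also the only CpG-rich promoter with a peak in every Aid+/+ iPS sample and no ES sample.

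Germline genes were among the regions with the largest differences. All 6 tested regions of the germline list were higher in MEFs, with a median log2 fold change of 2.62. By comparison, 27 of the 41 regions at CpG-rich promoters and 23.7% of all regions were higher. With filtered tags 5 of the 6 were higher, compared with 12 of the 41 and 5.7% of all regions. D1Pas1, an RNA helicase gene of the testis, had 937, 725 and 739 tags in MEFs and 83, 46, 64 and 91 in Aid+/+ iPS cells (log2 fold change 4.14 ± 0.28 SE, edgeR adjusted p = 1.48e-07). Sycp1, which encodes the transverse filament of the synaptonemal complex, had 779, 691 and 698 against 235, 30, 83 and 92 tags (3.47 ± 0.40 SE, edgeR adjusted p = 1.65e-05). Slc25a31, the ADP/ATP carrier of the testis, had 524, 419 and 431 against 191, 47, 88 and 87 tags (2.88 ± 0.29 SE, edgeR adjusted p = 5.83e-06). In these 3 genes no iPS clone reached the MEF values, and the iPS clone with the most tags at Sycp1 and Slc25a31 was replicate 1 of run A.

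The other germline genes gave smaller differences. Mov10l1, a helicase gene of the piRNA pathway, had 291, 246 and 237 tags in MEFs against 122, 57, 66 and 80 (2.36 ± 0.23 SE, edgeR adjusted p = 3.75e-06). Dazl had 718, 567 and 641 against 538, 165, 227 and 138 tags (2.06 ± 0.29 SE, edgeR adjusted p = 9.30e-05). Fkbp6 had 614, 561 and 615 against 654, 512, 390 and 228 tags (1.187 ± 0.22 SE, edgeR adjusted p = 0.000984), so its raw counts overlapped between the groups. Tex12, a synaptonemal complex gene outside the list, had a log2 fold change of 2.81 ± 0.38 (SE, edgeR adjusted p = 7.64e-05). On the scale of fold enrichment, which compares each peak with its own surroundings, none of the 6 germline regions passed the test (limma, BH-adjusted p under 0.05), and Sycp1 and Slc25a31 were lower in MEFs by log2 differences of -0.23 and -0.41.

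Imprinted genes had smaller fold changes. Of 6 tested regions, 4 were higher in MEFs (27 of 41 for all CpG-rich promoters), with a median log2 fold change of 0.68: Fkbp6, Plagl1 with 0.72 ± 0.19 (SE, edgeR adjusted p = 0.00806), the shared region of Peg10 and Sgce with 0.66, and Peg3 with 0.46 ± 0.17 (SE, edgeR adjusted p = 0.0456). Nap1l5 and Nnat, with 0.69 and 0.11, did not pass. Ribosomal protein genes were higher in 3 of 6 regions, and regions with copies in 11 of 18. Beside the 27 of all 41 regions, these counts show nothing particular to the 3 lists.

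The count of differing regions depended on how libraries were scaled. With the total tags of the file headers as library size, MEFs were higher at 16 of the 41 regions and lower at 0 (9.35% and 22.7% of all regions), and the median over all regions moved from -0.05 to -0.50. With the tags left after the filter on duplicates, 12 were higher and 13 lower (5.7% and 78.5% of all regions), and the median over all regions was -1.29. The 12 regions that were higher under all 3 library sizes were Ldoc1l, CT009512.1, D1Pas1, Mov10l1, Slc25a31, Trim52, Sycp1, Tex12, Dazl, 4933416C03Rik, Mif and Gm10110, of which 5 were of the germline list, 0 of the imprinted list and 2 had copies. Of the imprinted regions, 0 were higher and 0 lower by total tags, and 4 were lower by filtered tags. Tested on fold enrichment with limma, 3 regions were higher and 1 lower (5.15% and 26.8% of all regions).

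**Figure D5:**
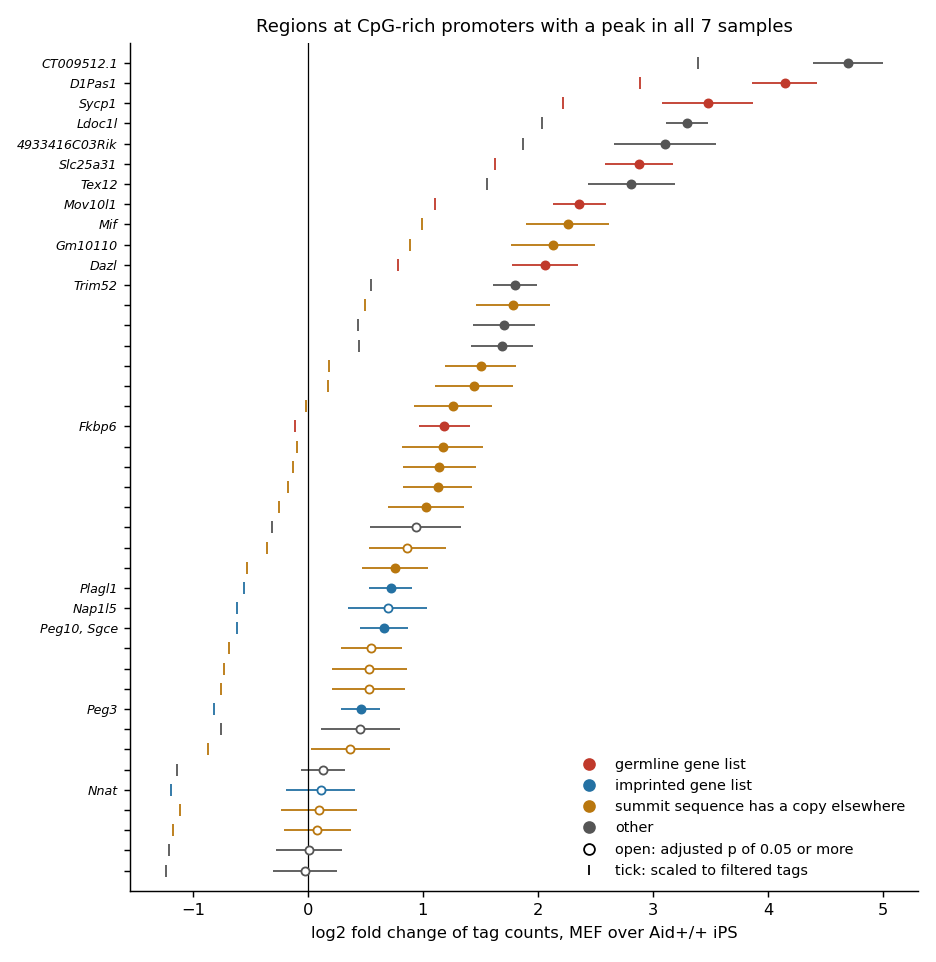
Log2 fold change of tag counts, MEFs over Aid+/+ iPS cells, at the 41 regions at CpG-rich promoters with a peak in all 7 samples, with points for the edgeR estimate, bars for its SE, filled points for an adjusted p under 0.05 and ticks for the estimate when libraries are scaled to filtered tags. Names are given for germline and imprinted genes and for regions higher under all 3 library sizes. Germline genes lie between 1.187 and 4.14, and 27 points are filled.

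The third comparison was that of Aid+/+ iPS cells with ES cells. The number of CpG-rich promoters with a peak was 198 ± 173 for the 3 ES lines and 260 ± 263 for the 4 Aid+/+ iPS clones (SD), with overlapping groups (two-sided permutation test (exact), p = 0.771, BH-adjusted p = 0.992). The share of peaks was 0.262 ± 0.0984% and 0.314 ± 0.363% (exact permutation test, p = 1, BH-adjusted p = 1), and the median fold enrichment 11.5 ± 1.25 and 12.1 ± 2.00 (exact permutation test, p = 0.657, BH-adjusted p = 0.992). Among themselves, the ES lines spread widely. ES replicate 2 had peaks at 3 germline promoters and ES replicate 3 at 15. The lines differed in strain as well as in the number of peaks, 56045, 31650 and 101951, and no run held both ES and Aid+/+ iPS cells.

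No CpG-rich promoter had a peak in every ES and no Aid+/+ iPS sample (0 of 8440, compared with 0.0211% of merged regions). CT009512.1 alone met the converse rule (0.0118% of 8440). This was 0.108% of the 927 CpG-rich promoters with a peak in any of these samples, compared with 0.782% of merged regions. Without ES replicate 2, 6 promoters met the first rule, and without ES replicate 3, 23 met the second. Of 17 regions at CpG-rich promoters with a peak in all 7 samples, edgeR called 0 (0.0133% of all 22638 regions were higher and 0.00442% lower in ES cells) and DESeq2 called 0 (0.91% higher and 0.451% lower over all regions). At an unadjusted p under 0.05, 1 differed in edgeR and 2 in DESeq2, compared with 10.1% and 11.1% of all regions. The regions with the smallest p in each direction, 2 higher and 2 lower, were Nkiras1, a gene of an inhibitor of NF-kB signalling with copies at its summit, with a log2 fold change of 0.89 ± 0.36 (SE, edgeR adjusted p = 0.425), Tdrd1, a piRNA pathway gene, with 0.45 ± 0.30 (edgeR adjusted p = 0.633), Nap1l5 with -1.03 ± 0.48 (edgeR adjusted p = 0.502) and Hmgb2 with -0.38 ± 0.33 (edgeR adjusted p = 0.708). Without ES replicate 3, edgeR called 1 of 19 regions higher and 1 lower, compared with 3.62% and 6.66% of all 22875 regions.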

How the data were processed

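MBD-seq peak lists of 14 samples, 1 per sample, were used. As the methods and labels state, BWA was used by the authors to map tags to mm9. They called peaks with MACS (1.4.0rc2 or 1.4.1 per the file headers), sample by sample, without a control library, at p of 1e-05 and with at most 2 tags kept per position. Each list gives deposited tag counts per peak, deposited p-values as −log10 p times 10 (the score), and the fold enrichment over the local background, a ratio made by the authors. Intervals for single values were not computed, and counting error is larger at peaks of few tags.

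Genes and 5′ ends (the outermost per gene) came from the GENCODE annotation of this build, and base composition from its sequence. Copies were sought with BLAST+ 2.17.0. The 2 groups of each comparison were tested by exact permutation of the samples. Tag counts were summed over merged regions with a peak of every sample compared and tested over all such regions with edgeR 4.0.16 (R 4.3.3, quasi-likelihood test, TMM, BH adjustment, threshold 0.05), with limma 3.58.1 and DESeq2 1.42.0 as alternatives. The scripts were tested on simulated data. Group-specific promoters followed the presence rule of the study.

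Samples were grouped by their titles, and replicate numbers only name samples. Members, gene lists and tests were chosen with earlier results of these data known. Named genes were the 6 most significant promoters marked in all samples, the 5 most significant per presence rule, the regions of smallest p per direction, up to 4 genes per list, and a few genes of prior interest, and genes beyond these were chosen after their values were seen. The settings that leave out copies, use single runs, add the run as a term or scale by filtered tags were chosen after seeing the data. Some genes are not reported here.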

Additional observations from a re-analysis of the deposited data

Results flagged for a closer look

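A sample was singled out when its gap to the nearest other sample of its group, divided by the range of the group, was above Dixon's 95% critical value for 4 samples. In groups without real differences this happens in about 1 of 20 groups, and here it happened in 12 of 32 groups tested. Many of these groups hold counts of a few promoters with ties, for which the critical value is only approximate.

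Aid+/+ iPS replicate 1, the only Aid+/+ clone of run A, stood apart in 7 values. It had 652 CpG-rich promoters with a peak, compared with 94 to 148 in the other 3 clones, and 0.858% of its peaks lay there, compared with 0.112 to 0.148%. Peaks were found in this clone at 5 Hox promoters (0 in each of the others), 6 epithelial promoters (0 in each of the others), 18 promoters of developmental transcription factors (0 to 2), 4 Zfp promoters (1 in each of the others) and 2 promoters of DNA methylation and demethylation genes (0 in each of the others).

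Aid-/- iPS replicate 3, the only Aid-/- clone outside run A, stood apart in 3 values. It had peaks at 6 ribosomal protein promoters (11 to 12 in the others), at 0 promoters of DNA methylation and demethylation genes (2 in each of the others) and at 0 housekeeping promoters (1 in each of the others). Aid+/+ iPS replicate 2 had peaks at 0 fibroblast promoters and Aid+/+ iPS replicate 4 at 0 housekeeping promoters, compared with 1 in each of the other clones. What set these samples apart was not tested.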

How the results depend on the processing

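Under settings other than a left-out sample, 74 values stayed the same, 13 turned, 13 moved and 1 came to pass its test. Tested differences stayed the same when they kept their direction and call. Counts stayed the same when their total changed little, whatever the direction. The 74 thus include the MEF tag counts scaled to filtered tags, with 12 regions higher and 13 lower, compared with 27 and 0 under TMM. No fit with clone series or run as a term called a region between genotypes. Causes of the changes below were not tested. For Aid-/- against Aid+/+ iPS cells, the difference in median fold enrichment turned to 1.32 in run A alone and 1.47 without run A (both settings chosen after seeing the data). Without run A, run and genotype cannot be told apart. Promoters with a peak in every Aid-/- clone alone numbered 0 at p of 1e-10 or less and 0 with the same number of top peaks, and those in every Aid+/+ clone alone 1 at p of 1e-10 or less. For MEFs against Aid+/+ iPS cells, the difference in promoters with a peak, -0.333 in the report, was 18.9 within 500 bp, 1.75 for any overlap, 23.2 at a CpG ratio of 0.75 or more, 59.8 at p of 1e-10 or less, 22.2 for every transcript and 166 with the same number of top peaks. With the last, the difference was 0.485 percentage points in the share and -1.90 in fold enrichment, and promoters with a peak in every iPS sample alone numbered 0. They numbered 22 for any overlap. Those with a peak in every MEF alone numbered 41 without copies. Differing regions numbered 16 with total tags as library size, 4 with limma on fold enrichment and 16 without copies, and D1Pas1 had a log2 difference of 0.22 with limma. For ES against Aid+/+ iPS cells, the difference in promoters was 33.8 with the same number of top peaks, that in the share 0.0216 at p of 1e-10 or less and 0.0943 with the same number of top peaks, and that in fold enrichment 1.12 at p of 1e-10 or less. Promoters with a peak in every ES sample alone numbered 1 with the same number of top peaks, and in every iPS sample alone 2 for any overlap, 0 at p of 1e-10 or less and 0 with the same number of top peaks.

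Leaving out 1 sample at a time gave these ranges. Between genotypes, the difference in promoters was 153 to 412, in the share 0.160 to 0.574 points and in fold enrichment -1.61 to 0.0313. Promoters marked in Aid-/- clones alone numbered 1 to 47, in Aid+/+ clones alone 0 to 1, and called regions 0 to 1. For MEFs the ranges were -55.7 to 130, 0.176 to 0.433 points and 0.862 to 2.36, with 67 to 111 promoters in MEFs alone, 9 to 17 in iPS cells alone (17 without Aid+/+ iPS replicate 2) and 21 to 36 called regions. For ES cells they were -161 to 68.3, -0.120 to 0.129 points and -1.55 to 0.0813, with 0 to 6, 1 to 23 and 0 to 2. Between genotypes, 412 was without Aid-/- iPS replicate 3, 408 without Aid+/+ iPS replicate 1 and 153 without Aid-/- iPS replicate 4. For MEFs and ES cells, 130 and 68.3 were without Aid+/+ iPS replicate 1, and -161 was without ES replicate 3.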
